A study of Mus musculus with 4 samples.

Results

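The nuclear lamina and inner nuclear membrane were examined through 10 genes chosen by symbol: the lamin genes Lmna, Lmnb1 and Lmnb2, the membrane proteins Lbr, Emd, Tmpo and Lemd3, the bridge proteins Sun1 and Sun2, and the chromatin-bound partner Banf1. Of these, 9 were among the 16861 genes listed in the libraries, and Sun2 was not analysed here. With a mean of at least 0.5 FPKM (fragments, counted as read pairs, divided by gene length and by the library total), 7 of the 9 entered the test with 11672 genes in all, and Lmnb1 and Lemd3 lay under that limit. The transcripts were measured in fully grown germinal vesicle (GV) oocytes of 3-week-old female C57BL/6J mice, freed of cumulus cells and sorted under the microscope by their Hoechst staining of DNA, both groups being in medium with milrinone, a phosphodiesterase inhibitor that holds oocytes at the GV stage. The groups are named after the nucleolus, which a rim of compact chromatin encloses in SN (surrounded nucleolus) but not in NSN (non-surrounded nucleolus) oocytes. Each configuration had 2 Smart-seq2 libraries of 15 pooled oocytes, and the comparison asked whether the transcripts of the envelope differ between both states of the chromatin.

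The lamina is a meshwork of lamin filaments on the inner face of the nuclear envelope, to which chromatin is tethered. A-type lamins (lamin A and lamin C, both made from Lmna by alternative splicing) and B-type lamins (from Lmnb1 and Lmnb2) form the filaments, LBR holds heterochromatin at the membrane, and the LEM-domain proteins emerin (Emd), LAP2 (Tmpo) and MAN1 (Lemd3) bind the DNA-bridging protein BAF (Banf1). SUN proteins cross the inner membrane and connect the lamina to the cytoskeleton through KASH proteins of the outer membrane. In the GV oocyte this envelope encloses the chromatin until it breaks down at the resumption of meiosis.

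Lamin A precursor and the B-type lamins end in a CaaX box, a cysteine followed by 3 residues, which is farnesylated, whereas lamin C has none. The last 30 coding bases are shown from the mouse gene models on GRCm39, in order to show what the gene-level values may pool. Capitals mark the 4 codons before the stop codon where the first of them encodes cysteine.
Lmna-201, lamin A type, 665 codons: cagagctcccagaacTGCAGCATCATGtaa
Lmna-203, lamin C type, 574 codons: caccaccgtgtgagtggcagccgccgctga
Lmnb2-201, lamin B2, 615 codons: actacctcaaggggcTGCCGACTGATGtga
The lamin A end is spliced from exons within chr3:88389381-88389655, the lamin C end lies in the exon sequence chr3:88390604-88390633, and the Lmnb2 end lies at chr10:80738693-80738722, all on the minus strand. A cysteine codon at this position was found in 3 of 11 complete coding models of Lmna and in 11 of 13 of Lmnb2. Of the 11, 10 had the end shown, and the other was a short model, Lmnb2-228, with a different end. The model annotated as canonical, Lmnb2-211, was among the 2 without it. Reads were counted per gene, so the FPKM of Lmna may hold both lamin A and lamin C transcripts and do not tell them apart. Which of them the oocytes held was not tested.

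The libraries held between 17069772 and 17998361 read pairs, as recovered from the FPKM. The oocyte markers were high in each library, with a summed level of 22371 to 23760 FPKM over 10 markers in NSN and 15929 to 16462 FPKM in SN. Of the 10, 6 (Bmp15, Gdf9, Nlrp5, Zp1, Zp2 and Zp3) were called lower in SN, against 1.98% of all tested genes. None was called higher, against 5.95%. By log2 fold change 2 of the 10 were higher in SN, Kit (0.29) and Oosp1 (0.03), against 66.7% of all tested genes. Of 14 granulosa and cumulus cell markers, 10 were listed, with a summed level of 9.78 and 13.8 FPKM in NSN and 14.1 and 14.0 FPKM in SN. The defining markers Amh, Amhr2 and Foxl2, and also Ptx3, were not among the listed genes. Cyp19a1 was at 5.81 and 8.06 FPKM in NSN and at 8.38 and 8.22 FPKM in SN. Kitl averaged 1.65 FPKM over the libraries, Nr5a2 1.59 and Inha 0.726. These 4 of the 10 could be tested. By limma 0 of them were called, against 7.93% of all tested genes, with 0 also at an unadjusted p under 0.05, against 31.7%. The part of granulosa and cumulus cells in the results below was not tested. Read pairs of the 100 genes with the highest totals made up 38.8% and 39.8% of the NSN libraries and 35.4% and 35.5% of the SN libraries, and the median log2 fold change of all tested genes was 0.14 in the direction of SN.

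None of the 7 tested lamina and inner membrane genes passed the test for a change between the configurations. Lbr, Banf1, Sun1, Tmpo and Emd had higher values in both SN libraries than in both NSN libraries. Their differences were 1.09-fold to 1.24-fold on the scale of log2(FPKM + 0.5), which understates changes of low genes. Lmna overlapped between the groups, and Lmnb2 had lower values in both SN libraries. SN was compared with NSN by limma on log2(FPKM + 0.5), and calls required a fold of 1.2 or more together with an adjusted p (Benjamini-Hochberg) below 0.05. By this rule 0 of 7 were called, against 7.93% of all tested genes, and at an unadjusted p under 0.05 the count was also 0 of 7, against 31.7% of all genes. By voom on the recovered read pairs it was 2 of 7 at an unadjusted p under 0.05, against 34.5% of all genes, and 0 of 7 were called, against 19.8%. Both SN libraries lay above both NSN libraries for 5 of 7, against 44.8% of all genes, and below them for 1 of 7, against 17.8%. The median log2 fold change of the 7 genes was 0.15, beside 0.14 for all tested genes. For median scaling, each library was divided by the median ratio of its genes to their geometric means over the 4 libraries. The ratios were taken over genes of at least 0.5 FPKM on average with no value of 0. After this scaling, 0 of 7 lay above (29.4% of all genes) and 1 of 7 lay below (30.1%), and the median of the 7 was -0.0075. With 2 libraries in a group, an exact permutation test of a single value cannot give a two-sided p below 0.333. No source says whether the libraries of a group came from separate mice, so the p-values measure only the spread between these libraries, which may be technical. FPKM are shares of a library, so an amount of RNA per oocyte was not measured, and fewer cells with a transcript and less of it per cell cannot be told apart.

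**Figure D1:**
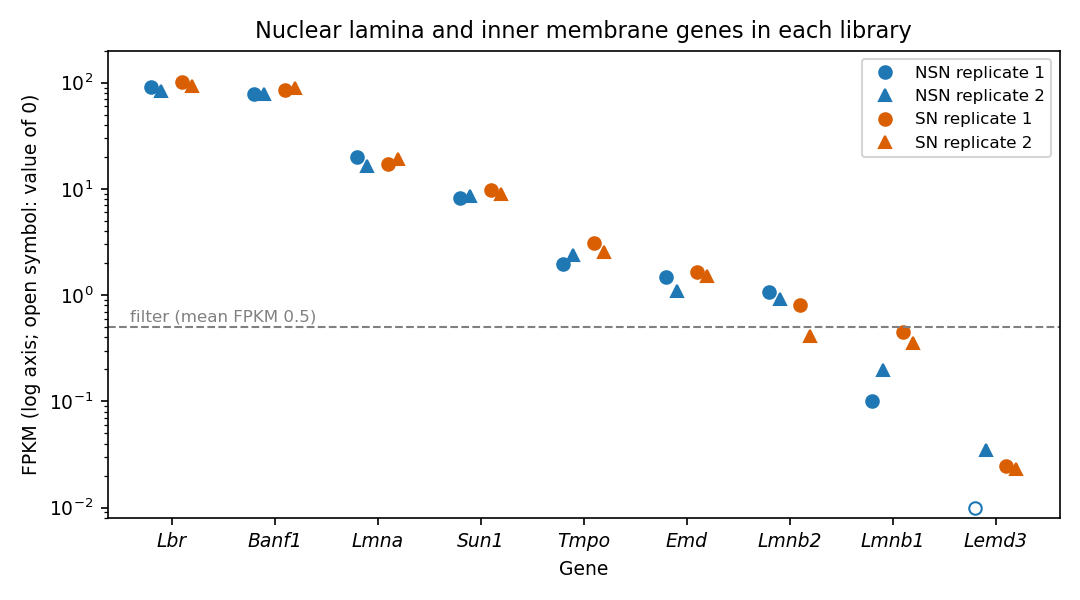
FPKM (log axis) of the 9 listed genes in each library, with NSN in blue, SN in orange, circles for replicate 1 and triangles for replicate 2, and the filter at a mean of 0.5 as a dashed line. The genes run from Lbr, near 92.3 FPKM on average, to Lemd3, near 0.0206 FPKM, and in most of them the 4 symbols lie close together beside the distance between genes.

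The genes spanned a wide range of levels in the oocyte, and their order was the same in each of the 4 libraries. Averaged over the libraries, the levels were 92.3 FPKM for Lbr, 82.4 for Banf1, 18.3 for Lmna, 8.90 for Sun1, 2.49 for Tmpo, 1.44 for Emd, 0.803 for Lmnb2, 0.276 for Lmnb1 and 0.0206 for Lemd3. The libraries of Lbr and Banf1 overlapped in level, as did those of Lmnb2 and Lmnb1, and the lowest value of Emd (1.09 FPKM) was next to the highest of Lmnb2 (1.08 FPKM). The values of all other neighbours in this order did not overlap. Lbr and Banf1 exceeded 93.9% and 93.2% of the tested genes in mean level, Lmna 76.6%, and Lmnb2 10.8%. With read pairs divided by the length of the annotated canonical transcript instead, Banf1 (73.2) came before Lbr (62.9), and the other genes kept their order. This order rests on the recovered read pairs, which are the smallest whole numbers that the FPKM allow and may be too low for a gene.

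Among the filament genes, Lmna was by far the most abundant and did not separate the configurations. Lmna (ENSMUSG00000028063.17, GRCm39 chromosome 3, 88387454 to 88417299, minus strand) was at 20.2 and 16.6 FPKM in NSN and at 17.3 and 19.0 FPKM in SN, from 986 to 1176 read pairs. The highest and the lowest value were both in NSN, and the groups overlapped. The log2 fold change was -0.016 ± 0.124 (SE), with a 95% interval from -0.31 to 0.28 and an adjusted p of 0.944. It was 0.12 without NSN replicate 1 and 0.05 without SN replicate 1, and -0.17 after median scaling.

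Lmnb2 had the lowest value of the tested genes in SN and the most negative difference. Lmnb2 (ENSMUSG00000062075.15, chromosome 10, 80737037 to 80754110, minus strand) was at 1.08 and 0.921 FPKM in NSN and at 0.803 and 0.409 FPKM in SN. The groups did not overlap, SN being lower, and SN replicate 2 stood apart from the other 3. These values rest on 74 and 65 read pairs in NSN and 54 and 29 in SN. The log2 fold change was -0.46 ± 0.226 (SE), with a 95% interval from -1.003 to 0.08 and an adjusted p of 0.212. It was -0.20 without SN replicate 2 and -0.72 without SN replicate 1, and -0.80 with an adjusted p of 0.0918 by voom on the read pairs, within a range of 0.068 to 0.636 over 18 alternatives. After median scaling it was -0.55, with an interval from -1.10 to -0.0092 and an adjusted p of 0.179, and Lmnb2 was then the 1 of 7 genes at an unadjusted p under 0.05, against 27.1% of all genes. Antisense non-coding genes overlap 29.2% of its exonic bases, and reads were counted without strand.

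Lmnb1 was barely detected, and its values were higher in SN. Lmnb1 (ENSMUSG00000024590.10, chromosome 18, 56840590 to 56886496, plus strand) was at 0.101 and 0.196 FPKM in NSN and at 0.453 and 0.352 FPKM in SN, from 5 and 10 read pairs against 22 and 18. The groups did not overlap. Summed over the libraries, 40 read pairs in SN stood against 15 in NSN, a ratio of 2.69 relative to the totals, with a 95% counting interval from 1.45 to 5.23 that leaves out the spread between libraries and the effect of amplification. In a fit of all listed genes, the log2 fold change of Lmnb1 was 0.48 ± 0.141 (SE) with an adjusted p of 0.114, and in voom on the read pairs of all listed genes it was 1.43 ± 0.541 (SE) with an adjusted p of 0.0866. Neither passed the threshold. Genes on the opposite strand overlap 17.3% of its exonic bases.

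The shares of the lamin genes in their summed FPKM do not depend on how the libraries are scaled. Lmna made up 94.5% and 93.7% in NSN and 93.2% and 96.1% in SN, so that the groups overlapped. The share of Lmnb1 was 0.473% and 1.11% in NSN and 2.45% and 1.78% in SN, both SN libraries being higher. The share of Lmnb2 was 5.05% and 5.20% in NSN and 4.33% and 2.07% in SN, both SN libraries being lower. Thus Lmnb2 had the larger B-type share in each library, and the distance between both B-type genes was smaller in SN. These shares are given as a description, with no test.

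**Figure D2:**
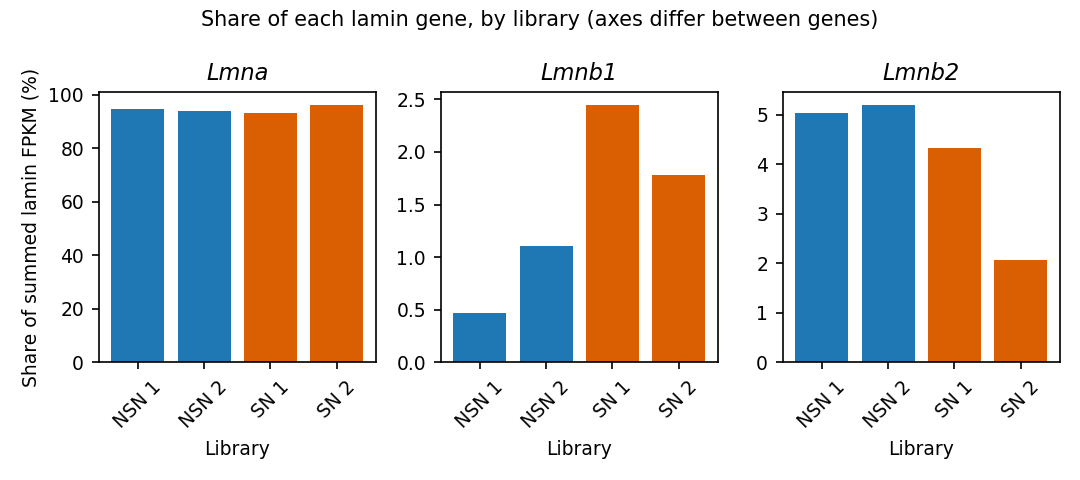
Share (%) of Lmna, Lmnb1 and Lmnb2 in the summed lamin FPKM of each library, as bars from 0 on separate axes, with NSN in blue and SN in orange. Lmna stays between 93.2% and 96.1%, Lmnb1 is below 2.5% throughout, and Lmnb2 lies between 2.07% and 5.20%.

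Lbr had the highest FPKM of the list, though not per canonical length with the recovered read pairs. LBR combines a domain that binds heterochromatin with a sterol reductase domain in the membrane. Lbr (ENSMUSG00000004880.13, chromosome 1, 181641631 to 181672984, minus strand) was at 90.5 and 84.2 FPKM in NSN and at 101 and 93.9 FPKM in SN, from 5296 to 6032 read pairs. Both SN libraries were higher, with means of 97.3 ± 4.83 FPKM in SN and 87.4 ± 4.43 FPKM in NSN (SD, n = 2). The log2 fold change was 0.15 ± 0.0832 (SE), with an interval from -0.05 to 0.35 and an adjusted p of 0.249. The interval leaves out a rise of more than 0.35 on the log2 scale of these FPKM, but it covers only the spread between these libraries, which may be technical. After median scaling, both means were nearly equal, with a log2 fold change of -7.8e-06 and an interval from -0.22 to 0.22.

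The partner of the LEM-domain proteins, Banf1, was nearly as abundant. Banf1 (ENSMUSG00000024844.17, chromosome 19, 5414660 to 5417614, minus strand) was at 78.6 and 77.8 FPKM in NSN and at 84.5 and 88.8 FPKM in SN, from 2047 to 2390 read pairs. Both SN libraries were higher, and the NSN libraries differed by less than the SN libraries. The log2 fold change was 0.15 ± 0.0766 (SE), with an interval from -0.04 to 0.33 and an adjusted p of 0.236, and it was -0.0075 after median scaling. The gene Eif1ad on the opposite strand overlaps 42.9% of the exonic bases of Banf1, and reads were counted without strand. The study's methods name no option that counts a read pair for both genes, so pairs lying in both may be missing from the Banf1 value. This was not tested. The processed pseudogenes Gm5393 and Gm48017, whose transcripts are at least 90% identical to parts of its coding sequence, were not among the listed genes.

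The LEM-domain proteins themselves were at lower levels. Tmpo (ENSMUSG00000019961.19, chromosome 10, 90983375 to 91017177, minus strand), which encodes the LAP2 isoforms, was at 1.96 and 2.37 FPKM in NSN and at 3.09 and 2.53 FPKM in SN, from 221 and 275 read pairs against 342 and 295. Both SN libraries were higher, with a log2 fold change of 0.31 ± 0.166 (SE), the most positive of the 7 in the fit of all 4 libraries but below that of Emd without NSN replicate 1 or SN replicate 1. Its interval ran from -0.08 to 0.71, and the adjusted p was 0.243. Leaving out SN replicate 1 gave 0.19, and leaving out SN replicate 2 gave 0.44. After median scaling, the log2 fold change of Tmpo by limma was 0.18 with an adjusted p of 0.478, and the groups overlapped.

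Emd (ENSMUSG00000001964.16, chromosome X, 73298286 to 73305169, plus strand), encoding emerin, was at 1.48 and 1.09 FPKM in NSN and at 1.66 and 1.53 FPKM in SN, from 46 to 67 read pairs. Both SN libraries were higher, though NSN replicate 1 was close to them. The log2 fold change was 0.24 ± 0.180 (SE), with an interval from -0.19 to 0.67 and an adjusted p of 0.393. It was 0.08 without NSN replicate 2 and 0.12 after median scaling. A transcribed processed pseudogene on the same strand, Gm14686, overlaps 9.26% of its exonic bases.

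Lemd3 (ENSMUSG00000048661.16, chromosome 10, 120759304 to 120815816, minus strand), encoding MAN1, was not detectable beyond the floor of 3 read pairs. It was listed at 0 and 0.0348 FPKM in NSN and at 0.0244 and 0.0231 FPKM in SN, that is 0 and 3 read pairs against 2 and 2. The groups overlapped, and no fold change is given.

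Sun1 was the listed SUN-domain gene of the list, at a moderate level. Sun1 (ENSMUSG00000036817.16, chromosome 5, 139185970 to 139235606, plus strand) was at 8.29 and 8.67 FPKM in NSN and at 9.70 and 8.95 FPKM in SN, from 720 to 826 read pairs. Both SN libraries were higher. The log2 fold change was 0.13 ± 0.110 (SE), with an interval from -0.13 to 0.39 and an adjusted p of 0.451, and it was -0.018 after median scaling.

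**Figure D3:**
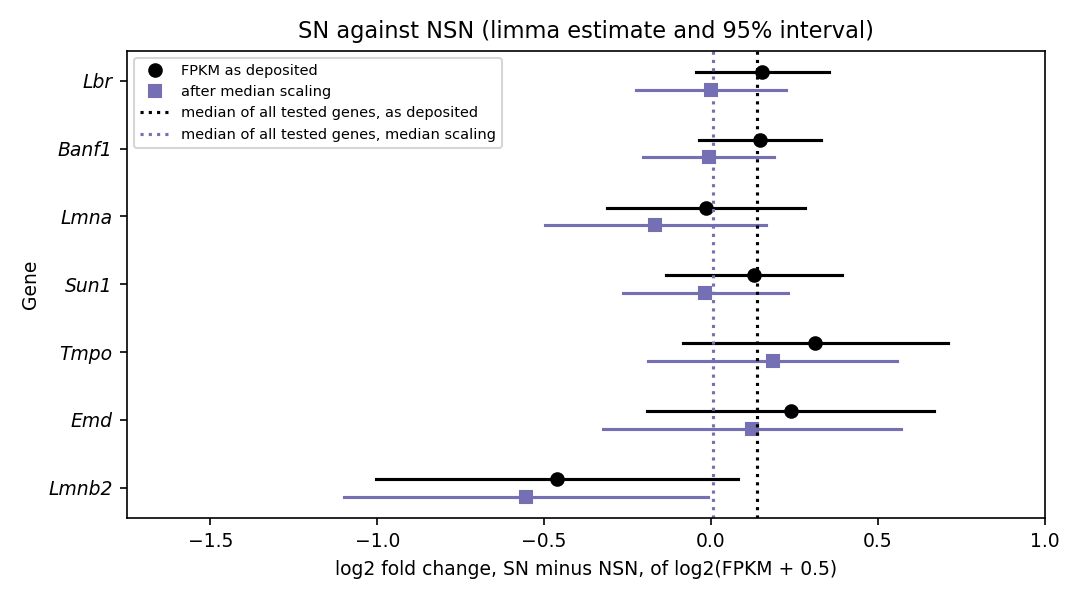
Log2 fold change (SN minus NSN, log2(FPKM + 0.5)) of the 7 tested genes with the 95% limma interval, for the FPKM as deposited (black) and after median scaling (purple), with the median of all tested genes as dotted lines at 0.14 and 0.0050. Each black interval crosses 0, the purple interval of Lmnb2 ends just below 0 at -0.0092, and the estimates of Lbr, Banf1 and Sun1 lie at the dotted lines under both scalings.

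For the envelope beyond the lamina, 6 further lists with 43 genes were taken, of which 36 were listed and 29 could be tested. Of the 29, 2 were called, Fnta and Syne2, both higher in SN, and 0 were called lower, against 5.95% and 1.98% of all tested genes. Values were higher in SN to any extent for 23 of 29, against 66.7% of all genes, and the median log2 fold change was 0.13. This count depends on the scaling: after median scaling some of these signs turned, among them those of Rce1, Lpin2 and Fntb, while others stayed. By limma both calls lay just under the threshold and were lost, among other settings, after median scaling and without NSN replicate 1, SN replicate 1 or SN replicate 2. By voom on read pairs both were kept, also with median scaling, where 14.7% of all genes were called. The adjusted p of voom with median scaling was 0.0457 for Fnta and 0.0243 for Syne2.

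Fnta (chromosome 8, 26484643 to 26505678, minus strand) encodes the alpha subunit shared by farnesyltransferase, which attaches the lipid to the CaaX boxes printed above, and by a related enzyme that attaches a longer lipid. It was at 21.5 and 25.3 FPKM in NSN and at 32.2 and 38.1 FPKM in SN, without overlap. It rose by 0.58 ± 0.125 (SE) on the log2 scale, with an adjusted p of 0.0455, and the value was 0.42 with an adjusted p of 0.0845 after median scaling. Of the 5 genes of lamin tail processing, 1 was called higher and 0 lower, against 5.95% and 1.98% of all genes. By log2 fold change 5 of 5 were higher in SN to any extent, against 66.7% of all genes. After median scaling, Rce1 (-0.076) and Fntb turned negative, and the other genes of this list stayed positive. Zmpste24, the protease that cleaves prelamin A, was at 6.72 and 7.67 FPKM in NSN and at 11.0 and 9.37 FPKM in SN, with a log2 fold change of 0.47 and an adjusted p of 0.0704. It was called in 5 alternatives, including a looser threshold of 0.1, voom on read pairs (adjusted p of 0.0188) and limma without NSN replicate 2 (0.0473), and its adjusted p ranged from 0.0171 to 0.249. Fntb, the beta subunit of farnesyltransferase, was at 2.63 and 2.26 FPKM against 2.31 and 2.60 FPKM, with a log2 fold change of 0.0065 that was -0.12 after median scaling. Rce1, which trims the CaaX end, had the highest level of this list, with 102 and 84.5 FPKM in NSN and 96.1 and 99.6 FPKM in SN, and the groups overlapped. Zmpste24 and Fntb were named after their values were seen.

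Among the 4 tested KASH proteins and other partners of SUN proteins, 1 was called higher and 0 lower, against 5.95% and 1.98% of all genes. Syne2 (chromosome 12, 75864908 to 76157700, plus strand), which encodes nesprin-2, a giant outer membrane protein, was also the most abundant of them. It was at 9.17 and 9.92 FPKM in NSN and at 13.04 and 13.50 FPKM in SN. Both SN libraries were higher, and the log2 fold change of 0.46 ± 0.105 (SE) had an adjusted p of 0.0494, which became 0.31 with an adjusted p of 0.107 after median scaling. Its partner in the inner membrane, Sun1, had a log2 fold change of 0.13, and the difference between both genes was not tested.

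In the remaining 4 lists, 0 of 20 tested genes were called by limma, against 7.93% of all genes, with 5 of 20 at an unadjusted p under 0.05, against 31.7%. By voom 0 of 20 were called with library totals, against 19.8% of all genes, and 2 of 20 (Tmem43 and Tor1a) with median scaling, against 14.7%. Of the 9 other LEM-domain and inner membrane genes, 6 had higher values in SN, with a median log2 fold change of 0.07. The highest level there was that of Tor1a, an ATPase of the lumen between both membranes, at 286 and 303 FPKM in NSN and 253 and 256 FPKM in SN. Both SN libraries of Tor1a were lower, with a log2 fold change of -0.21 and an adjusted p of 0.105. Of the 7 genes of envelope breakdown, reassembly and lipid control, 5 had higher values in SN, and the most abundant, the phosphatidate phosphatase gene Lpin2, overlapped between the groups at 36.2 to 39.6 FPKM. Terb1, which tethers telomeres to the envelope in meiotic prophase, was at 6.17 and 6.81 FPKM in NSN and at 8.34 and 7.97 FPKM in SN, with a log2 fold change of 0.31 and an adjusted p of 0.129. Dhcr7, a sterol reductase related to the membrane domain of LBR, was at 1.73 and 1.69 FPKM in NSN and at 1.66 and 2.25 FPKM in SN, so that the groups overlapped.

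**Figure D4:**
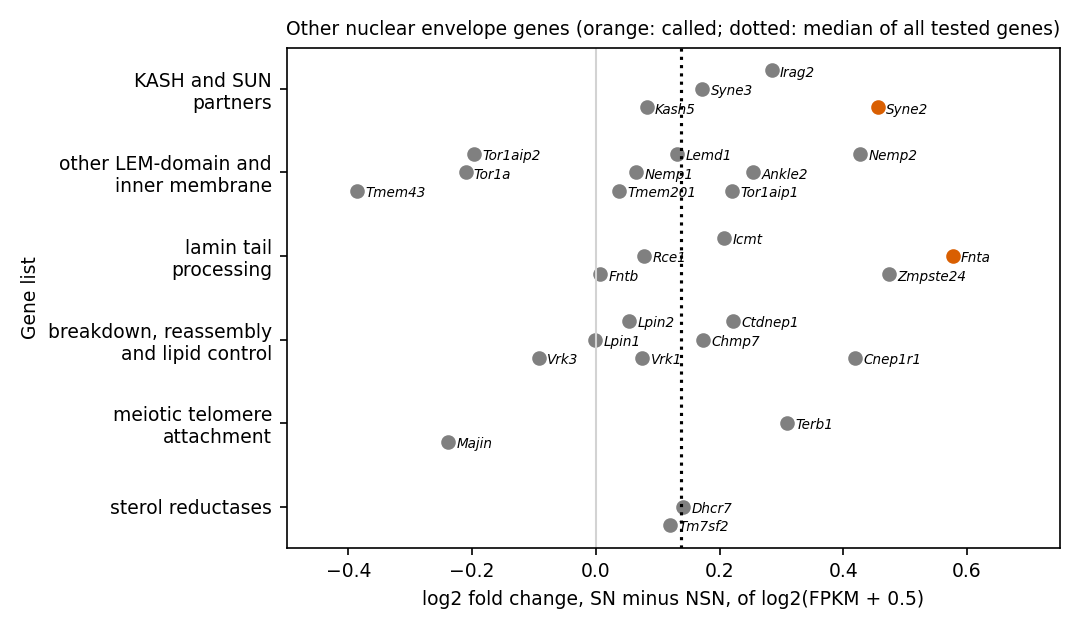
Log2 fold change (SN minus NSN, log2(FPKM + 0.5)) of the 29 tested genes of 6 further nuclear envelope lists, with called genes in orange and the median of all tested genes as a dotted line at 0.14. Fnta at 0.58 and Syne2 at 0.46 are the called genes, and most of the others lie between -0.24 and 0.43.

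The patterns over the libraries were last compared with those of 5519 genes with a mean of at least 5 FPKM, by the Euclidean distance between the log2(FPKM + 0.5) values of the 4 libraries after each gene was centred on its own mean. The genes nearest to Tmpo were Kif2a (distance 0.0365), Mnat1 (0.0443) and Stt3a (0.0446). Kif2a, a kinesin that depolymerises microtubules, was at 5.49 and 6.58 FPKM in NSN and at 8.51 and 7.11 FPKM in SN. The genes nearest to Lmnb2 were Nudcd3 (0.0829), Smim15 (0.0830) and Rogdi (0.113). Nudcd3 was at 17.0 and 14.8 FPKM in NSN and at 12.8 and 9.34 FPKM in SN. Its lowest value in SN replicate 2, as for Lmnb2, follows from the choice by pattern. None of the 6 genes was called by the limma test on all 11672 genes, against 7.93% of all genes. Voom on read pairs called Stt3a, Nudcd3 and Rogdi, against 19.8% of all genes. Limma on the 5519 genes alone called Nudcd3 and Rogdi, where 1496 of the 5519 were called. The 6 genes were chosen by these same values, so their calls are no separate result.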

How the data were processed

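RNA-seq libraries were made by Smart-seq2 from 15 GV oocytes each, and 2 NSN and 2 SN libraries were grouped by the labels. The labels mention 3 samples for each group, and 2 per group were analysed here. Per the labels and the study's methods, the authors used Trim Galore 0.6.10 for trimming, HISAT2 for mapping to GRCm39 and featureCounts for read pairs on exons, without strand, and normalised them with their own script. The deposited values are FPKM, read pairs relative to gene length and library total, and DESeq2 was used by the authors on counts that were not used here.

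Library totals were recovered from the FPKM and the lengths of 5 mitochondrial tRNA genes, whose read pairs had to lie within 1e-06 of whole numbers. From these totals the length and whole read pairs of 16834 genes (99.8%) were then recovered, at a wider tolerance. The number of read pairs limits the precision, and intervals of counts cover counting error only. A recovered length is the smallest that gives whole numbers, so the true length and read pairs of a gene may be a multiple of those recovered. The recovered length was 965 bp for Fnta and 3510 bp for Lbr, against canonical transcripts of 1930 bp and 5151 bp. Read pairs used by voom may be too low for such genes. Positions came from GENCODE vM39, a later release than that of the authors on the same build, and similar transcripts from BLAST 2.17.0.

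Genes averaging 0.5 FPKM or more were compared as log2(FPKM + 0.5) in R 4.3.3 by limma 3.58.1 (lmFit and trended eBayes, two-sided, Benjamini-Hochberg over 11672 genes). Fold changes are on the scale of log2(FPKM + 0.5), which understates changes of low genes. The thresholds of an adjusted p of 0.05 and a fold of 1.2 follow the study's methods. The procedure was also run on simulated read pairs with a preset spread, which need not match that of these libraries, and no result here rests on it. Alternatives were other pseudocounts and filters, median scaling, quantile normalisation, totals without the 100 most abundant genes, a replicate block, limma without the trend, voom on read pairs, other thresholds, and each library left out in turn. Voom on all listed genes, levels per canonical length and non-overlap after median scaling were added after the data were seen.

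The genes and lists were chosen with earlier results of these data known. Named were all 10 genes, each called gene and the most abundant gene of the other envelope lists, and the 3 genes of at least 5 FPKM nearest in pattern to the members with the largest rise and the largest fall. Same-numbered libraries did not deviate together (r = -0.070 between the deviations of replicate 1 from the group means, over 11672 genes), so they were not treated as pairs. Python 3.11.15 with pandas 2.3.3 and matplotlib 3.10.9 was used for the rest.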

Additional observations from a re-analysis of the deposited data

How the results depend on the processing

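The count of 0 called lamina and inner membrane genes was met under each alternative run, with 4 to 9 of the genes tested. The number of called genes of all genes (926) was 0 with all listed genes (4092 at an unadjusted p under 0.05), 0 with no variance trend (3449 unadjusted), 1496 for genes averaging 5 FPKM or more, 234 after median scaling, 230 after quantile normalisation, 248 with totals without the 100 most abundant genes, 2311 by voom on read pairs, 1712 by voom with median scaling, 2304 by voom on all listed genes, 2370 at an adjusted p under 0.1 and 76 at a fold of at least 2. Called genes were higher in SN in 75.1% as deposited and in 28.6% after median scaling, which shifted the median log2 fold change of all genes by 0.13. The median log2 fold change of the 7 genes was -0.0075 after median scaling, 0.057 without the 100 most abundant genes in the totals and -0.0068 by voom with median scaling. The signs turned for Lbr (-7.8e-06), Banf1 (-0.0075), Sun1 (-0.018), Rce1 (-0.076), Lpin2 (-0.098) and Fntb (-0.12) after median scaling, for Sun1 (-0.053), Lpin2 (-0.045) and Fntb (-0.12) after quantile normalisation, for Rce1 (-0.011), Lpin2 (-0.034) and Fntb (-0.068) without the 100 most abundant genes in the totals, and for Sun1 (-0.019), Banf1 (-0.0068), Rce1 (-0.075), Lpin2 (-0.100) and Fntb (-0.14) by voom with median scaling.

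Of the other envelope genes, 2 as reported, the called number was 1 (Fnta) with a pseudocount of 0.1, 0 with all listed genes (8 unadjusted), 0 after median scaling, quantile normalisation or totals without the 100 most abundant genes (5 unadjusted in each), 0 with no variance trend (7 unadjusted) and 0 at a fold of at least 2. It was 4 by voom with median scaling (Fnta, Syne2, Tmem43 and Tor1a). It was 3 (Zmpste24 added) for genes averaging 5 FPKM or more, by voom with library totals, by voom on all listed genes and at an adjusted p under 0.1. Over 20 alternatives the adjusted p ran from 0.00727 to 0.142 for Fnta and from 0.000994 to 0.171 for Syne2, and the cause was not tested.

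With the replicate number as a block, 422 of all genes and 1 of the other envelope genes (Fnta) were called, and Syne2 had an adjusted p of 0.0763. The block changed no call among the 7 lamina and inner membrane genes.

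Leaving out each library in turn, with the lone library of a group assumed to vary like those of the other, gave 0 to 1685 called genes (0 without NSN replicate 1, where 2278 passed unadjusted) and 0 to 3 called other envelope genes (3, with Zmpste24, without NSN replicate 2). The sign turned in the ranges of Lmna (-0.15 to 0.12, positive without NSN replicate 1 or SN replicate 1, at 0.050), Rce1 (-0.054 to 0.21), Lpin2 (-0.0094 to 0.12), Fntb (-0.083 to 0.096) and Dhcr7 (-0.031 to 0.31). The difference in lamin share between SN and NSN ranged from -0.87 to 2.06 percentage points for Lmna, from 0.99 to 1.66 for Lmnb1 and from -3.05 to -0.79 for Lmnb2. The share of Sun1 in Sun1 plus Sun2 was not run, since Sun2 was not analysed here. Values of Lmnb1, Lemd3, Emd and Lmnb2, with at most 74 read pairs in a library, are limited by depth.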
